A study of Homo sapiens with 12 samples.

Results

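Proteasome subunits and activators were followed here after depletion of WTAP in Kasumi-1, a human cell line of acute myeloid leukaemia with the t(8;21) translocation. WTAP is a regulatory subunit of the enzyme complex that writes N6-methyladenosine (m6A) on mRNA. The members were the genes of the expression table named PSMA to PSMG with a number, plus ADRM1 and POMP, which made 48 genes of 27411. PSMA8 and PSMB11, which belong to tissue-restricted proteasomes, are not rows of the table. Per the labels, the control cells carried a lentiviral scrambled shRNA and the shWTAP cells a lentiviral shRNA against WTAP, and both were selected with puromycin at 2 µg/ml from 48 h after infection for at least 24 h. All libraries came from this 1 line, so differences between lines or patients were not sampled. Each condition had 3 input libraries of poly(A) RNA and 3 libraries after immunoprecipitation with an anti-m6A antibody (IP), called biological replicates in the labels. Levels were given as FPKM, fragments scaled to transcript length and library total, for the 6 input libraries. The IP libraries entered through 2 lists of m6A peaks, 1 for control and 1 for shWTAP, in which 53 of 35341 and 54 of 35851 peaks were assigned to the members.

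The proteasome degrades proteins that carry ubiquitin chains. Its 20S core is a barrel of outer alpha rings, which gate the entrance, and inner beta rings, which hold the proteolytic sites. A 19S particle caps the barrel: 6 ATPases at its base unfold the substrate, and the remaining subunits bind ubiquitin, remove it or hold the particle together. Other caps (PA28, PA200) can replace the 19S particle, and immunoproteasome beta subunits can replace the catalytic ones, mostly in blood and immune cells. Leukaemia and myeloma cells are known to depend on the proteasome, and the drug bortezomib blocks the site in PSMB5.

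All 48 genes passed the filter for testing, which asked for an FPKM of at least 1 in at least 3 libraries and was passed by 11383 genes of the table. Between 11216 and 11392 genes reached 1 FPKM in a library, and the depth of sequencing cannot be read from FPKM. KIT (701 to 856 FPKM), MPO (1296 to 1550 FPKM) and CD34 (49.8 to 58.7 FPKM), markers of the myeloid progenitor state of this line, were high in every input library. Of the other myeloid markers chosen, CD33, RUNX1, RUNX1T1 and PTPRC ran from 12.4 to 26.1 FPKM, while ANPEP (CD13) stood at only 2.89 to 4.71 FPKM. The T-cell and endothelial markers CD3E and PECAM1 stayed under 1 FPKM. COL1A1 stayed under 1 FPKM too, while EPCAM, an epithelial marker, stood at 38.6 to 50.2 FPKM in all 6. Control 3 and shWTAP 1 stood apart from the other libraries: the 13 mitochondrially encoded mRNAs took 0.634% and 0.631% of their summed FPKM, against 0.301% to 0.333% in the other 4. Results are therefore also given with these 2 libraries as a block and without shWTAP 1. FPKM is a share of a library, so a change of all mRNA alike cannot be seen, and in bulk RNA fewer cells of a type and less RNA per cell cannot be told apart.

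WTAP mRNA, the target of the shRNA, stood at 11.5, 11.2 and 11.7 FPKM in control and at 6.97, 6.48 and 5.69 FPKM in shWTAP. Every shWTAP library lay below every control library, and shWTAP 1 kept the most WTAP mRNA of the 3. WTAP fell by 0.76 on the log2(FPKM + 1) scale (SE 0.08, limma adjusted p = 0.00663), to 55.6% of the control mean. An exact permutation test of this value gave p = 0.1 (2-sided), the smallest that 3 against 3 libraries allow.

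Proteasome mRNAs were abundant and the differences were small. Control means ran from 1.29 FPKM for PSMB9 to 76.8 FPKM for PSMB3, with a median of 18.98 FPKM, against 5.89 FPKM over all tested genes. The differences, as log2 change of shWTAP minus control, ran from -0.48 (ADRM1) to 0.38 (PSMB9). At a Benjamini-Hochberg adjusted p under 0.05 over all tested genes, 2 of 48 members were called lower in shWTAP, ADRM1 and PSME2, and 46 did not pass. The background is 2.42% of all tested genes called lower, and 2 of 48 is of that order. None was called higher, where the background is 1.48%. At an unadjusted limma p under 0.05, 14 members were lower and 2 higher, against backgrounds of 13.6% and 9.87%. All shWTAP libraries lay below all control libraries for 15 members, where the background is 16.2% of tested genes, and above them for 4 (PSMA2, PSMB8, PSMB9 and POMP), where it is 12.1%. The difference was negative for 35 of 48 members, against a background of 55.0%, and its median was -0.12, against -0.03 over all tested genes.

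**Figure D1:**
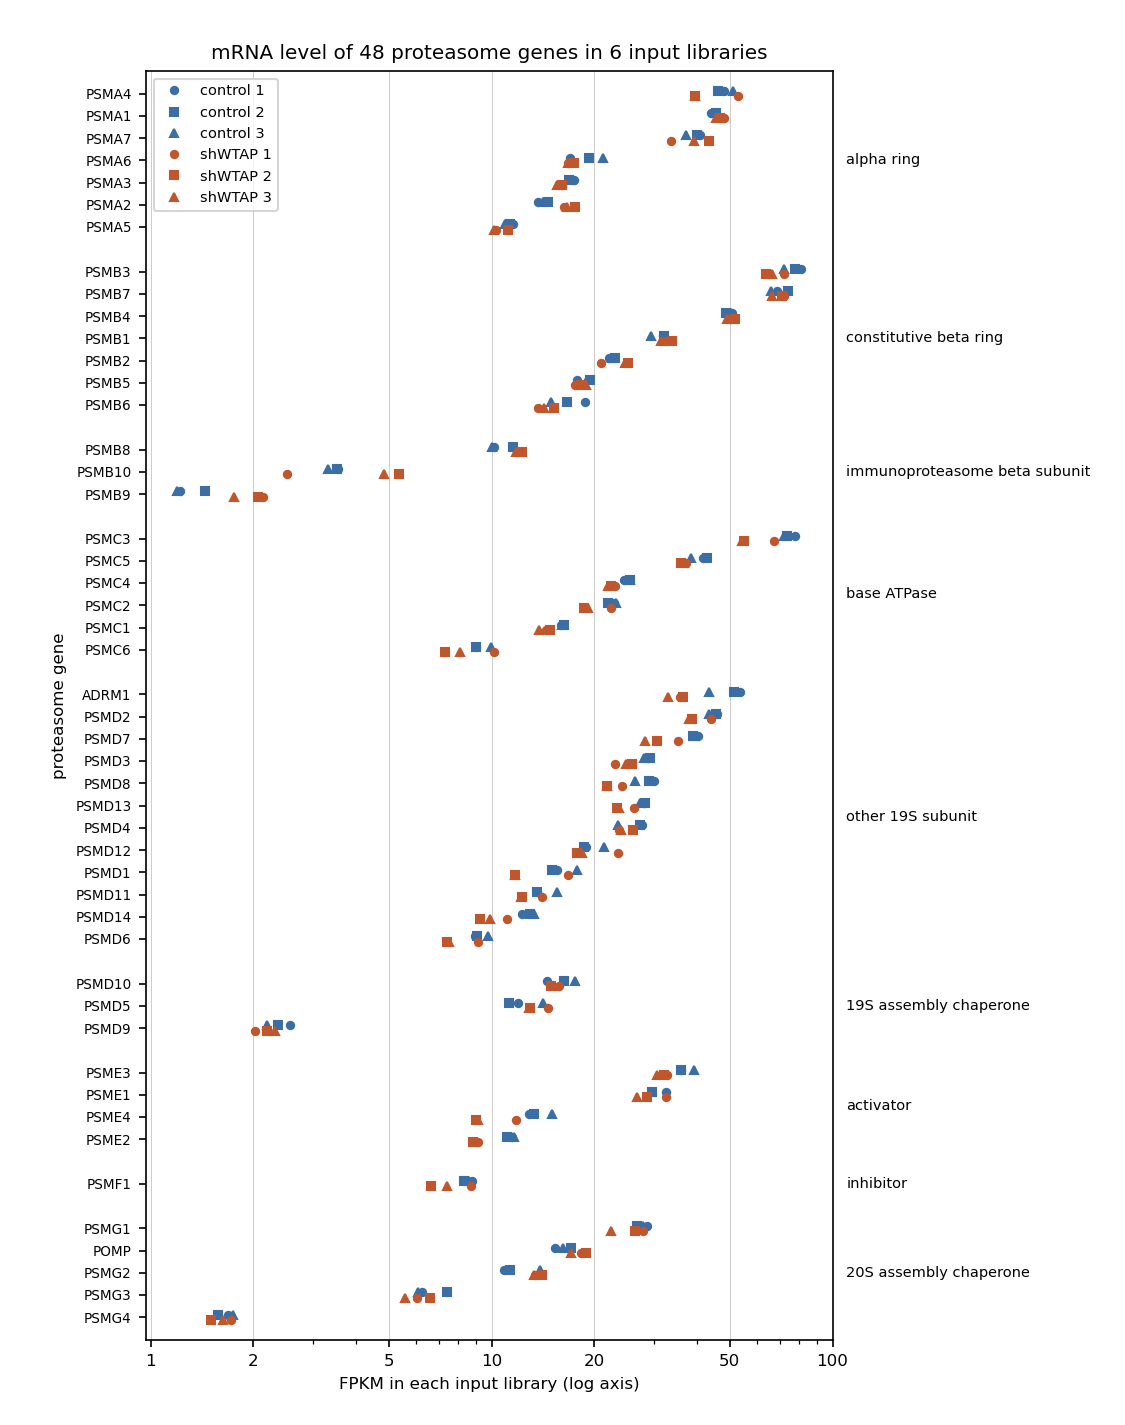
FPKM on a log axis of the 48 proteasome genes in the 6 input libraries, grouped by role and ordered by control level; blue marks are control and orange marks shWTAP, with circle, square and triangle for libraries 1, 2 and 3. The immunoproteasome subunits PSMB9 and PSMB10 and the chaperones PSMD9 and PSMG4 had the lowest levels, and in many 19S subunits the orange square and triangle lie left of all blue marks.

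The called genes belong to different parts of the machine. ADRM1 (RPN13) is a ubiquitin receptor of the 19S particle and the docking site of the deubiquitinase UCHL5. It stood at 53.7, 51.4 and 43.4 FPKM in control and at 35.7, 36.3 and 32.9 FPKM in shWTAP, so that the groups did not overlap and control 3 was the lowest control. ADRM1 fell by 0.48 (SE 0.09, limma adjusted p = 0.0392), to 70.7% of the control mean. Between shWTAP 1 and control 3, the pair high in mitochondrial mRNA, its log2 difference was -0.28, and the remaining 4 libraries gave -0.59. The gene lies at chr20:62302093-62308862 on the plus strand in the table, which names no build. All 48 members overlap the RefSeq GRCh38.p14 gene of their symbol. Of the genes that overlap ADRM1 on the other strand, LAMA5 and AL354836, neither reached a mean of 0.3 FPKM in either group.

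PSME2 encodes the beta subunit of PA28, a ring that opens the 20S core without ATP and is known for its part in antigen processing. Its levels were 11.5, 11.1 and 11.7 FPKM in control and 9.16, 8.85 and 8.92 FPKM in shWTAP, tight within each group and without overlap. PSME2 fell by 0.32 (SE 0.06, limma adjusted p = 0.0392), to 78.6% of the control mean. The difference was of the same size in the mitochondrially high pair (-0.32) and in the remaining 4 libraries (-0.32). PSME2 lies at chr14:24143362-24147570 on the minus strand and shares 888 bases with RNF31 on the other strand, whose means were 4.44 FPKM in control and 2.54 FPKM in shWTAP (limma adjusted p = 0.211). Whether fragments were counted by strand is not given in the sources used here, so reads of PSME2 and RNF31 may not have been told apart. ADRM1 and PSME2 both pass narrowly: each was called in 7 of 14 alternative settings, with adjusted p from 0.00465 to 0.161 for ADRM1 and from 0.00983 to 0.169 for PSME2, and kept its sign in all 14. Leaving out control 1, control 2, shWTAP 2 or shWTAP 3 ended both calls, and leaving out control 3 ended that of PSME2.

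The promoters of these genes are shown because the proteasome genes are known to be controlled together at the DNA, through antioxidant response elements bound by NFE2L1 and through CCAAT boxes bound by the factor NF-Y. The windows are the 250 bases before the RefSeq start (GRCh38.p14), 5′ to 3′ on the strand of the gene. Besides both called genes they include PSMD8 and PSMD14, the next 19S subunits by adjusted p, and PSMB9, the member with the largest positive difference. Capitals mark matches on either strand to the core of the antioxidant response element, TGACNNNGC, and to CCAAT. The windows lie at chr20:62302646-62302895 (plus strand, ADRM1), chr14:24146611-24146860 (minus strand, PSME2), chr19:38374321-38374570 (plus strand, PSMD8), chr2:161308175-161308424 (plus strand, PSMD14) and chr6:32853942-32854191 (plus strand, PSMB9).
ADRM1: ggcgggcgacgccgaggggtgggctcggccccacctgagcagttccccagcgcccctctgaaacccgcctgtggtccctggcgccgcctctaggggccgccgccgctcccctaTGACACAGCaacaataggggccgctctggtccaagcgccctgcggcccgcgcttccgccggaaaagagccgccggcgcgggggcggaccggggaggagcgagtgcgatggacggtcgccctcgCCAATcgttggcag
PSME2: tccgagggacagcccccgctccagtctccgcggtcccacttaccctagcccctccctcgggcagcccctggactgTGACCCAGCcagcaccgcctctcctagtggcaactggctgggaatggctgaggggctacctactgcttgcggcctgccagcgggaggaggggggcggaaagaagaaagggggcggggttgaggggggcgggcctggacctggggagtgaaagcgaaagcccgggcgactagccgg
PSMD8: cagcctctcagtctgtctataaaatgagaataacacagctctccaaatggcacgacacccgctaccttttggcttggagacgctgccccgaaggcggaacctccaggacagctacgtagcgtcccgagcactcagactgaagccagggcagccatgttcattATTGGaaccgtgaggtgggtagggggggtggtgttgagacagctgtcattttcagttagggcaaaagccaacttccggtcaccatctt
PSMD14: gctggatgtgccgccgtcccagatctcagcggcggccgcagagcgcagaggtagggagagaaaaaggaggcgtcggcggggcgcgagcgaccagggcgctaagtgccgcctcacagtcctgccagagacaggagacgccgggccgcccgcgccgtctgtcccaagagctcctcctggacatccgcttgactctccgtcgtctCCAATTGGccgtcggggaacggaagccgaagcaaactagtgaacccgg
PSMB9: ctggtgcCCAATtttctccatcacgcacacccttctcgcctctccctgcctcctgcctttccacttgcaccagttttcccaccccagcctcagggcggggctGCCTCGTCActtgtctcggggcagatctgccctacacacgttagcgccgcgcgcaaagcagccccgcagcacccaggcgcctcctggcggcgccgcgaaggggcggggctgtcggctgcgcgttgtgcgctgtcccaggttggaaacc

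ADRM1 held both motifs, the antioxidant response core at 137 to 129 bases before the start and CCAAT at 14 to 10. ADRM1 has another RefSeq start, before which the same motifs lie at 238 to 230 and 115 to 111 bases. The windows shown for ADRM1, PSME2 and PSMB9 lie inside the gene spans of the expression table, which begin further upstream. PSME2 held the antioxidant response core alone, at 175 to 167 bases before the start. PSMD8 held a CCAAT box on the other strand, 88 to 84 bases before the start, and in PSMD14 a CCAAT at 48 to 44 bases overlapped one on the other strand at 45 to 41. PSMB9 held CCAAT at 243 to 239 bases and the antioxidant response core on the other strand at 148 to 140. RefSeq windows were found for 42 of the 48 members. Windows of 14 of these genes held the antioxidant response core and those of 19 held CCAAT. By window, the shares were 28.8% of 52 member windows for the antioxidant response core, against 10.9% of all 35116 windows of this length, and 38.5% for CCAAT, against 32.0%. These 35116 windows are of 27305 genes and were not limited to tested genes. Among tested genes with a window, 3458 held CCAAT and 4710 did not, beside 19 and 23 members. For the antioxidant response core the counts were 1294 and 6874, beside 14 and 28 members. Of the 19 members with a CCAAT window, 10 were below all controls in every shWTAP library, and of the 23 without one, 5 were. Over all tested genes with a window the shares were 17.3% with CCAAT and 16.2% without it. For the antioxidant response core the counts were 6 of 14 with it and 9 of 28 without it, and the shares over all such genes 18.3% and 16.4%. The difference between members with and without a motif was not tested. A match describes letters in a window and was not tested against binding or expression.

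Of the 18 members that are subunits of the 19S particle, 17 had a negative difference, against 55.0% of all tested genes. The shWTAP libraries lay below all controls for 10 of them, against 16.2% of all tested genes. Their median difference was -0.18 (-0.13 with quantile normalization). Only ADRM1 passed the test, and the 19S subunits were not tested as a set. SEM1, also a 19S subunit, does not match the naming rule of the members and was read among the pathway partners. Its groups overlapped (log2 difference -0.23, limma adjusted p = 0.230), and it is not part of the counts, sums and ratio given here. The 18 genes summed to 515.1, 508.0 and 493.9 FPKM in control and to 461.1, 415.1 and 407.2 FPKM in shWTAP, 84.6% of the control mean. The groups did not overlap, and shWTAP 1 lay between the controls and the other shWTAP libraries. shWTAP 2 and 3 were both below all controls for 17 of 18 subunits, while shWTAP 1 was below all controls for 10, within their range for 6 and above it for 2.

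The 14 constitutive subunits of the 20S core had values closer to each other between the groups. They summed to 483.6, 485.4 and 471.9 FPKM in control and 472.0, 471.3 and 454.1 FPKM in shWTAP, 97.0% of the control mean, and the groups overlapped only through shWTAP 1 and control 3. Here 8 differences were negative and 6 positive, with a median of -0.03 (0.01 with quantile normalization), and none passed the test. At an unadjusted limma p under 0.05 there was 1 lower (PSMB3) and 1 higher (PSMA2), where the backgrounds are 13.6% and 9.87%. The ratio of summed 19S to summed 20S FPKM was 1.07, 1.05 and 1.05 in control and 0.977, 0.881 and 0.897 in shWTAP, with no overlap. This ratio sets mRNA sums scaled per length against each other. It counts no particles, and no test was made of it because the sums were chosen with the members' values known.

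**Figure D2:**
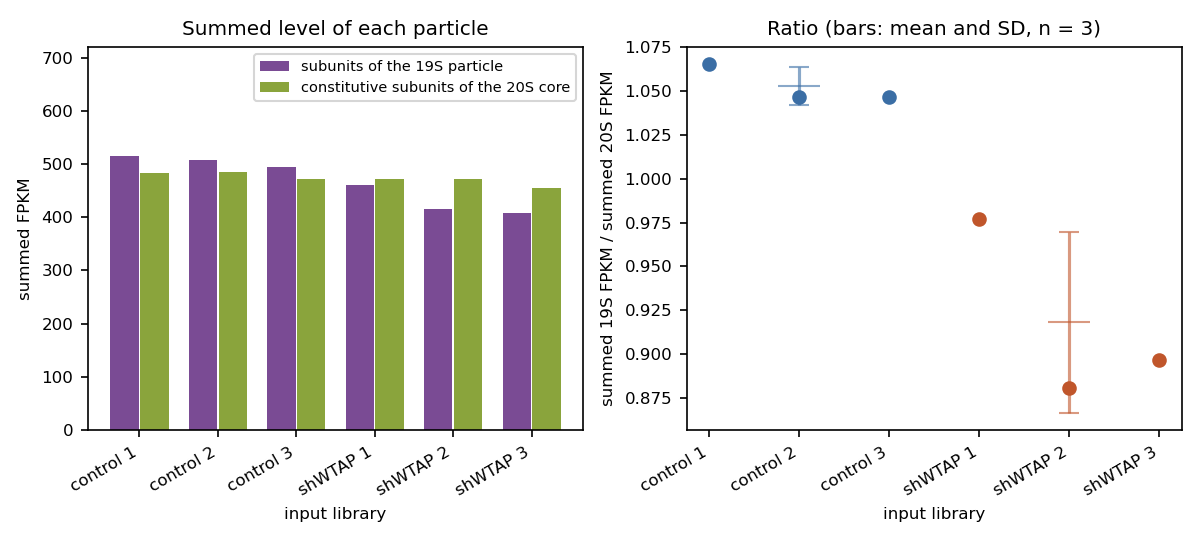
Left, summed FPKM in each input library of the 18 member subunits of the 19S particle and 14 constitutive subunits of the 20S core. Right, their ratio per library, with mean and SD of each group (n = 3) and an axis that does not start at 0. The 20S sums stay between 454.1 and 485.4 FPKM, and the ratio lies at 1.05 to 1.07 in control and 0.881 to 0.977 in shWTAP.

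All 6 base ATPases, the ring that unfolds substrates and threads them into the core, had negative differences, from -0.13 to -0.34. None passed the test. At an unadjusted limma p under 0.05, 4 of 6 were lower, where the background is 13.6% of tested genes. PSMC3, the most abundant of them, stood at 77.8, 73.7 and 71.9 FPKM in control and at 67.4, 54.9 and 54.2 FPKM in shWTAP. Its groups did not overlap, and shWTAP 1 was the nearest to control (log2 difference -0.34, SE 0.09, limma adjusted p = 0.0894). PSMC4 stood at 24.5, 25.5 and 25.4 FPKM against 23.0, 22.4 and 22.0 FPKM, PSMC1 at 16.0, 16.4 and 16.1 FPKM against 14.5, 14.9 and 13.8 FPKM. PSMC5 stood at 41.6, 42.8 and 38.3 FPKM against 37.2, 36.0 and 36.7 FPKM. In these 3 genes the groups did not overlap, the log2 differences lay between -0.15 and -0.16, and the limma adjusted p between 0.163 and 0.209. PSMC6, the least abundant ATPase, overlapped between the groups, at 9.03, 9.03 and 9.97 FPKM against 10.2, 7.31 and 8.10 FPKM, with shWTAP 1 the highest of all 6 libraries.

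Among the 12 other 19S subunits, PSMD8 (RPN12), which in yeast joins last as the lid is assembled, stood at 30.0, 28.9 and 26.3 FPKM in control and 24.1, 21.7 and 21.8 FPKM in shWTAP (log2 difference -0.32, SE 0.08, limma adjusted p = 0.0622). PSMD14 (RPN11) is the metalloprotease that cuts ubiquitin chains from substrates as they enter. It stood at 12.3, 13.0 and 13.4 FPKM against 11.1, 9.23 and 9.93 FPKM (log2 difference -0.33, SE 0.08, limma adjusted p = 0.0675). PSMD7 (RPN8), the partner that PSMD14 pairs with, stood at 40.2, 39.0 and 39.3 FPKM against 35.3, 30.5 and 28.3 FPKM (log2 difference -0.33, SE 0.09, limma adjusted p = 0.0800). All 3 had groups that did not overlap, each with shWTAP 1 nearest to control, and missed the threshold. PSMD3 and PSMD13, scaffold subunits of the lid, also had groups without overlap, with log2 differences of -0.22 and -0.18. PSMD6, the least abundant, overlapped at 8.94, 9.08 and 9.76 FPKM against 9.12, 7.41 and 7.52 FPKM. PSMD4 (RPN10), another ubiquitin receptor of the particle, overlapped between the groups at 27.6, 27.3 and 23.5 FPKM against 23.6, 25.9 and 24.0 FPKM, a log2 difference of -0.09 (95% interval -0.28 to 0.11). PSMD12 was the only 19S subunit with a positive difference, 0.01, and shWTAP 1 gave its highest value (23.4 FPKM).

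**Figure D3:**
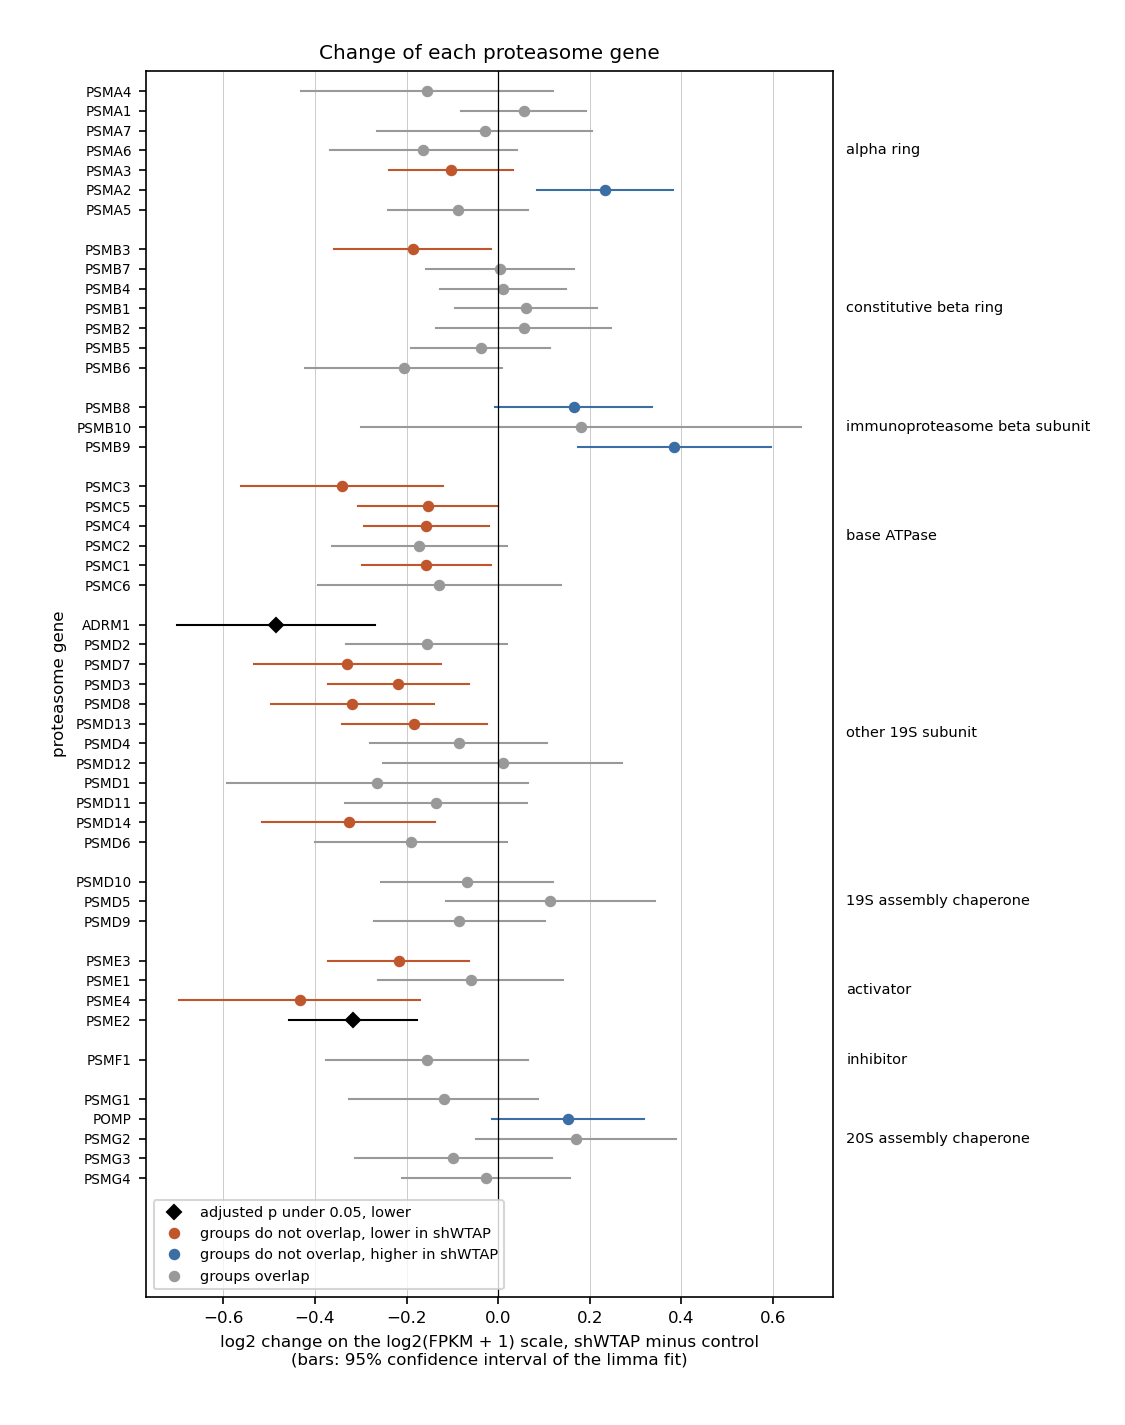
Log2 change of each proteasome gene on the log2(FPKM + 1) scale, shWTAP minus control, with the 95% confidence interval of the limma fit, grouped by role and ordered by control level within each role. Black diamonds are ADRM1 (-0.48) and PSME2 (-0.32), orange and blue circles are genes whose groups do not overlap, and the 19S subunits and activators lie mostly left of 0.

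In the alpha ring, PSMA2 had the smallest p. Its levels were 13.7, 14.7 and 14.2 FPKM in control and 16.3, 17.6 and 16.6 FPKM in shWTAP, so every shWTAP library was above every control (log2 difference 0.23, SE 0.06, limma adjusted p = 0.0880). PSMA3 lay the other way, at 17.4, 16.8 and 17.1 FPKM against 16.1, 16.1 and 15.5 FPKM (log2 difference -0.10, limma adjusted p = 0.330). PSMA4, the most abundant alpha subunit, overlapped at 48.1, 46.3 and 51.2 FPKM against 52.7, 39.4 and 39.5 FPKM, with shWTAP 1 above all controls and the other shWTAP libraries below them. PSMA6 and PSMA5, the least abundant, differed by -0.16 and -0.09 with overlapping groups. PSMA6 has a listed pseudogene, PSMA6P1, at means of 3.66 FPKM in control and 4.72 FPKM in shWTAP, so its reads may be split. In all, 11 pseudogenes of members are listed, and 3 reached 1 FPKM in some library.

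In the constitutive beta ring, PSMB3, a structural subunit and the most abundant member of all, stood at 80.6, 77.8 and 72.1 FPKM in control and 71.9, 63.9 and 66.4 FPKM in shWTAP. The groups were separated by a small step between control 3 and shWTAP 1 (log2 difference -0.19, SE 0.07, limma adjusted p = 0.182). The catalytic subunits PSMB5, PSMB6 and PSMB7 all overlapped between the groups. PSMB5, the site of chymotrypsin-like cleavage, stood at 17.9, 19.4 and 19.04 FPKM against 17.5, 18.3 and 18.9 FPKM, a log2 difference of -0.04 (95% interval -0.19 to 0.11). PSMB7, the site of trypsin-like cleavage, differed by 0.00 (-0.16 to 0.17), and PSMB6, the site of caspase-like cleavage, by -0.21 (-0.42 to 0.01). PSMB1 and PSMB2 differed by 0.06 each.

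The immunoproteasome beta subunits, the inducible replacements of the catalytic ones, were the only role with no negative difference. None of the 3 passed the test. PSMB9 alone was higher at an unadjusted limma p under 0.05, where the background is 9.87% of tested genes. PSMB9 stood at 1.22, 1.44 and 1.20 FPKM in control and at 2.14, 2.06 and 1.76 FPKM in shWTAP, without overlap. Its log2 difference of 0.38 (SE 0.09, limma adjusted p = 0.0599) is the largest positive one among the members, and its mean in shWTAP was 154.4% of control. PSMB9 overlaps TAP1 and PSMB8 on the other strand and PSMB8-AS1 on the same strand. TAP1, a peptide transporter of antigen presentation, had means of 1.65 FPKM in control and 2.36 FPKM in shWTAP, and PSMB8-AS1 of 1.45 and 1.92 FPKM, both at a limma adjusted p of 0.0982, so reads of this locus may not have been told apart. PSMB8 stood at 10.2, 11.6 and 10.0 FPKM against 11.9, 12.3 and 11.8 FPKM, with no overlap and a narrow gap (log2 difference 0.16, SE 0.07, limma adjusted p = 0.227). PSMB10 stood at 3.55, 3.53 and 3.32 FPKM against 2.51, 5.34 and 4.84 FPKM. shWTAP 1 lay below all controls and the other shWTAP libraries above them, so its log2 difference of 0.18 had an SE of 0.21, and without shWTAP 1 it was 0.45 (limma adjusted p = 0.00849).

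The activators had 4 negative differences of 4. PSME4 (PA200), a nuclear cap, stood at 12.9, 13.3 and 15.1 FPKM in control and 11.8, 8.99 and 9.13 FPKM in shWTAP, without overlap (log2 difference -0.43, SE 0.11, limma adjusted p = 0.0759). PSME3 (PA28 gamma), also nuclear, stood at 36.0, 36.0 and 39.3 FPKM against 32.7, 32.0 and 30.6 FPKM, without overlap (log2 difference -0.22, SE 0.07, limma adjusted p = 0.109). It shares 8966 bases with BECN1, an autophagy gene on the other strand, whose means were 9.73 FPKM in control and 4.07 FPKM in shWTAP (limma adjusted p = 0.00225), so reads of the pair may not have been told apart. PSME1, the alpha subunit that pairs with PSME2, overlapped between the groups at 32.4, 29.6 and 29.4 FPKM against 32.4, 28.6 and 26.8 FPKM (log2 difference -0.06, 95% interval -0.26 to 0.14). The 2 subunits of the same PA28 ring thus stood on different sides of the threshold, and the difference between them was not tested. PSMF1 (PI31), which blocks the 20S core in vitro, overlapped at 8.74, 8.28 and 8.57 FPKM against 8.72, 6.65 and 7.42 FPKM.

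Of the 5 20S assembly chaperones, none passed the limma test or had an unadjusted p under 0.05. POMP, which is consumed as the core matures, stood at 15.3, 17.1 and 16.2 FPKM in control and 18.3, 18.99 and 17.1 FPKM in shWTAP. The step between control 2 and shWTAP 3 was 17.10 to 17.12 FPKM, so the lack of overlap is marginal (log2 difference 0.15, SE 0.07, limma adjusted p = 0.245). PSMG2 had overlapping groups and a difference of 0.17, and its partner in the alpha-ring chaperone pair, PSMG1, the most abundant chaperone, one of -0.12. PSMG3 and PSMG4, the other pair, differed by -0.10 and -0.03, and PSMG4 was the lowest of the class at 1.67 ± 0.0841 FPKM (SD, n = 3) in control. The 19S assembly chaperones PSMD5, PSMD9 and PSMD10 differed by 0.11, -0.08 and -0.07, all with overlapping groups and limma adjusted p of 0.518 or more.

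The members' calls depended on the libraries that stood apart. With control 3 and shWTAP 1 as a block, 11 members were called lower and 2 higher (PSMA2 and PSMB9), where the backgrounds under that setting are 10.7% and 6.36% of tested genes. Of the 11, 8 were 19S subunits and 3 were activators. Without shWTAP 1, 16 members were called lower and 3 higher, against backgrounds of 15.1% and 9.06%, and 10 of the 16 were 19S subunits. Of the 20S constitutive subunits, PSMA2 was the only call with the block, and without shWTAP 1 the calls were PSMA4 and PSMB3 lower and PSMA2 higher. The median of the 19S subunits was -0.09 in the mitochondrially high pair, with 14 of 18 negative, and -0.24 in the remaining 4 libraries, with 18 of 18 negative. For the 20S constitutive subunits the medians were -0.04 and -0.03. The part of mitochondrial content, or of the smaller WTAP loss in shWTAP 1, in these differences was not tested.

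The other genes of the pathway were read from a list of partners, of which DDI1 is not a row of the table and 42 were tested: ubiquitin genes, the ubiquitin-activating enzymes, shuttles, proteasome-bound enzymes, the VCP complex and the transcription factors of proteasome genes. Of these 42, 1 was called lower and none higher, beside the 2.42% and 1.48% of all tested genes. At an unadjusted limma p under 0.05, 11 were lower and 1 higher, beside 13.6% and 9.87% of all tested genes. The called gene was NFYA, the subunit of NF-Y that recognises CCAAT. It stood at 23.9, 24.5 and 24.7 FPKM in control and 15.9, 13.3 and 13.5 FPKM in shWTAP, without overlap, and fell by 0.74 (SE 0.08, limma adjusted p = 0.00713). The other NF-Y subunits did not pass: NFYC differed by -0.24 (limma adjusted p = 0.169) and NFYB by -0.04 (limma adjusted p = 0.778). NFE2L1, the factor that raises proteasome genes when proteasomes are blocked, stood at 62.7, 64.3 and 64.1 FPKM against 55.1, 47.9 and 47.9 FPKM, just short of the threshold (log2 difference -0.34, SE 0.07, limma adjusted p = 0.0507). UBA1, the main ubiquitin-activating enzyme, stood at 52.4, 51.2 and 49.3 FPKM against 42.7, 41.7 and 41.8 FPKM, at the same adjusted p (log2 difference -0.27, SE 0.06). UBE3C, a ligase bound to the proteasome, stood at 11.5, 11.5 and 12.7 FPKM against 10.1, 8.93 and 8.45 FPKM (log2 difference -0.35, SE 0.08, limma adjusted p = 0.0616). UCHL5, which docks on ADRM1, stood at 18.99, 18.3 and 22.0 FPKM against 18.7, 12.7 and 12.8 FPKM, overlapping through shWTAP 1 (log2 difference -0.42, SE 0.15, limma adjusted p = 0.150).

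Across the 6 input libraries, 5 tested genes outside the list had log2 profiles most like the mean of the members. RABEPK, ZPR1, ATF1, H2AZ1 and OTUD6B correlated with it at Pearson r of 0.996 to 0.998 over 6 libraries, which fall into the study's groups, so the value describes a shared order of libraries. RABEPK stood at 14.01, 14.5 and 14.1 FPKM in control and 12.5, 10.8 and 10.1 FPKM in shWTAP, with shWTAP 1 again nearest to control.

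m6A peaks were listed on most proteasome genes in both conditions. In the authors' deposited lists 35 of 48 members had an assigned peak in control and 34 in shWTAP, against backgrounds of 77.2% and 77.1% of tested genes. Both lists held a peak for 33 members (68.8%), against a background of 72.8%. A peak was in neither list for 12: PSMA1, PSMA2, PSMA3, PSMA6, PSMB2, PSMB6, PSMD8, PSMD14, PSME1, PSME2, PSME3 and POMP. By role, 16 of the 18 19S subunits had a peak in both lists, including all 6 ATPases, against 6 of the 14 constitutive 20S subunits and 1 of the 4 activators. All 3 immunoproteasome subunits had peaks in both. Of the member peaks, 5 in control and 2 in shWTAP carry an annotation that names another gene. Among them are both control peaks of PSMB9 and the only peak of PSMD6 in each list (deposited p of 0.021 in control and 0.045 in shWTAP). Peaks have no replicate here, since each condition has a single list, so no difference between the lists was tested, and a listed peak gives no methylated share. Of the called genes, ADRM1 had peaks in both lists and PSME2 in neither. The shWTAP libraries lay below all controls for 10 of the 36 members with a peak in some list and for 5 of the 12 with none. Over all tested genes the shares were 16.8% with a peak and 13.3% with none.

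PSMG2 and PSMB3 had a peak in the control list only, and PSMA4 in the shWTAP list only. These are 4.17% and 2.08% of the members, near or below the 4.45% and 4.36% of all tested genes. The PSMG2 peak (chr18:12635093-12658134, fold 18.0 in the authors' deposited list) was overlapped by a shWTAP peak assigned to another gene. The PSMB3 peak (chr17:38751068-38751367) lies before the gene and its annotation names another gene. Its fold in the authors' deposited list is 9.02. The PSMA4 peak (chr15:78550534-78551162) covers 629 bases of the 3' UTR, with a deposited fold of 9.65 and p of 0.00085, and no control peak overlaps it. Assigning peaks by overlap with the gene's span instead left 0 members in the control list only and 1 in the shWTAP list only.

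Peaks largely coincided between the lists. In control, 46 of the 53 member peaks were overlapped by at least 1 base of a shWTAP peak (86.8%), against a background of 82.6% of all control peaks. In shWTAP, 45 of 54 were overlapped (83.3%), against a background of 82.8%. They gathered at the gene ends: the midpoints of 23 control peaks lay in the first 20% of the gene and those of 17 in the last 20%. The counts in shWTAP were 20 and 21. These places were not computed for all peaks of the lists, so the counts have no background here. By the deposited annotation, 34.0% of member peaks in control were in a 5' UTR and 47.2% in a 3' UTR, against 18.9% and 46.8% of all control peaks. In shWTAP the shares were 29.6% and 57.4%, against 18.5% and 46.3%. The annotation is by transcript and can mislead, since 5 control and 8 shWTAP peaks called 3' UTR had their midpoint before the middle of the gene, and the peak at the start of PSMD12 was called 5' UTR in control and 3' UTR in shWTAP.

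Deposited fold enrichments of member peaks were mostly low, with medians of 2.88 in control and 3.28 in shWTAP, against 6.77 and 6.75 over all peaks of each list. The highest in control was on the base ATPase PSMC1, at the end of its 3' UTR (chr14:90274801-90275429), with a fold of 95.9, exceeded by 0.396% of the control list. The overlapping shWTAP peak (chr14:90274771-90275429) had a fold of 9.35. PSME4 had peaks of fold 73.3 and 56.4 in control at its start (chr2:53970574-53970993 and chr2:53970838-53971167), which overlap each other and count as 1 site. The peak of fold 56.4 runs past the listed span of PSME4. ACYP2, on the other strand, shares 156 bases with PSME4, at means of 0.411 FPKM in control and 0.591 FPKM in shWTAP. Whether that peak belongs to ACYP2 was not tested. The shWTAP peaks that overlap those of PSME4 had folds of 10.5 and 9.16. These sites are listed in both conditions, and whether their m6A differed was not tested. Next among member peaks of the control list were those of PSMG2 (18.0) and PSMB9 (14.1), the latter with an annotation that names another gene.

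Among member peaks of the shWTAP list the highest folds were 22.2 for an exonic peak of PSMB8 of 61 bases, 18.3 for PSMD5, 14.5 for the 5' UTR of PSMA5, 11.7 for PSMB9, and 10.6 each for PSMC1 and PSMD1. The PSMD5 peak (chr9:120842412-120846577) has its midpoint before the gene and an annotation that names another gene, and a control peak overlaps 2069 of its bases. The control peak that overlaps the one in PSMB8 had a fold of 3.76. At PSMA5 the overlapping control peak had 13.5. PSMB9 and PSMB8 each had an assigned peak over the same stretch within the listed span of PSMB9 (chr6:32845184-32846500 and chr6:32845209-32847237 in control), so these count 1 site for both. The annotation of the control peak assigned to PSMB9 names another gene, and the peak assigned to PSMB8 lies outside PSMB8. The shWTAP peak of PSMB9 with fold 11.7 covers this stretch too, and its annotation names no other gene. Which gene the stretch belongs to was not tested. On ADRM1, whose mRNA fell, the peaks were weak in both lists, with folds of 1.53 and 1.56 in control and 1.90 in shWTAP, the last 2 overlapping at the gene's end (chr20:62308713-62308862 in shWTAP). PSMC3, PSMD7 and PSMD13, with levels below all controls in every shWTAP library, had peaks with folds of 3.30, 4.09 and 4.48 in control, and the overlapping shWTAP peaks had 4.20, 6.31 and 3.75.

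**Figure D4:**
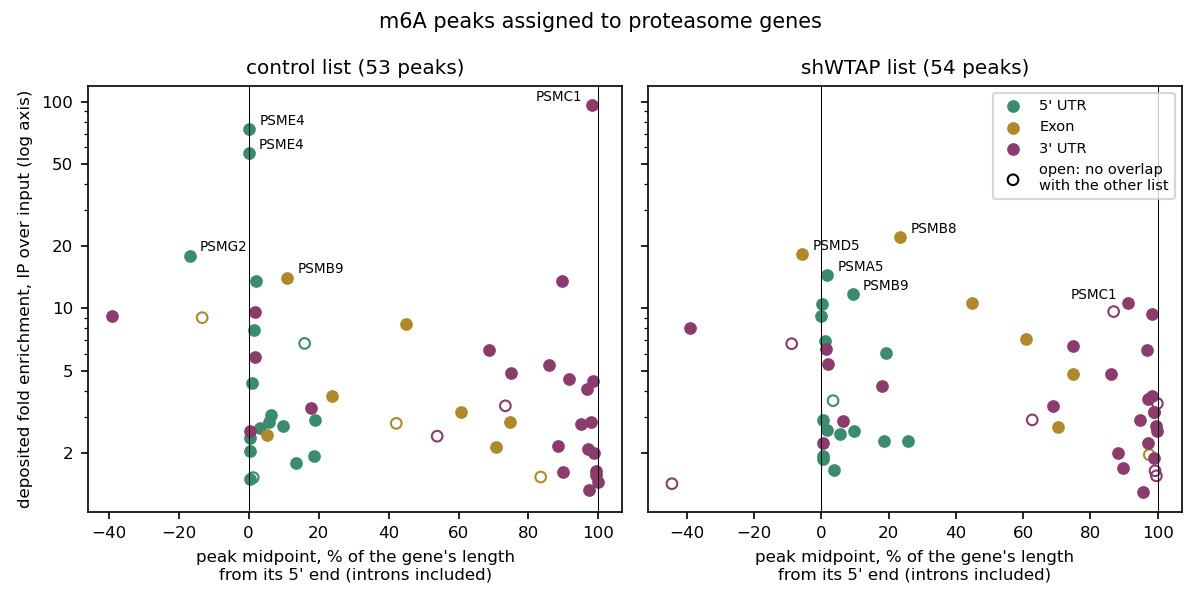
Deposited fold enrichment of IP over input (log axis) of each m6A peak assigned to a proteasome gene against the place of its midpoint, as % of the gene's length from the 5' end with introns included, in the control list (53 peaks) and the shWTAP list (54 peaks). Colours give the deposited annotation, open circles have no overlap in the other list, and most peaks lie near 0% or 100%, with PSMC1 (95.9) and PSME4 (73.3 and 56.4) highest in control.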

How the data were processed

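FPKM values of 6 input libraries were used as the authors deposited them. Tools named in the submitters' processing notes, without role or version, are ChIPseeker, HOMER, HISAT2 and fastp. Not given in the sources used here are the build, annotation, peak caller and any pooling of replicates. There was 1 deposited peak list per condition, made from IP against input. A peak's fold enrichment (ratio), p-value and log10 scores are the authors' values and served only to describe and filter peaks within a list. Peak starts count from 0 in the files and were raised by 1 for printing.

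Groups and replicate numbers came from sample titles. limma 3.58.1 (R 4.3.3; lmFit, eBayes with trend) was fitted to log2(FPKM + 1) without covariates, with an FPKM of at least 1 in at least 3 libraries, Benjamini-Hochberg adjustment over all 11383 genes and a call at 0.05. The scale understates changes of low genes. The procedure was tested on simulated data with independent noise for each gene and library. That simulation held no effect shared by libraries, such as the one that set control 3 and shWTAP 1 apart, so it cannot speak to such effects. Peaks were assigned to members by gene ID, and overlap meant at least 1 shared exonic base, strand ignored.

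Named were WTAP, every called member, per role the 4 smallest adjusted p and the highest and lowest control level, members with peaks in 1 list, the 5 highest folds per list, called pathway genes and the next 4, and the 5 most like profiles. PSMA7, PSMB4, PSMB5, PSMB7, PSMD3, PSMD4, PSMD12, PSMD13, UCHL5, NFYB and NFYC were added after their values were seen. The members and lists were chosen with earlier results of these data known. Alternatives changed the pseudocount, filter, normalization, blocks and libraries, and for peaks the threshold, assignment and overlap.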

Additional observations from a re-analysis of the deposited data

How the results depend on the processing

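The call counts of proteasome genes moved with the processing, and the cause was not tested unless stated. Main counts were 2 lower and 0 higher. Without a filter on low values, where 27411 genes are adjusted together, and with the replicate block, limma called 0 lower, with 15 and 10 at an unadjusted p under 0.05. The counts were 11 lower and 2 higher with the block for high mitochondrial mRNA. Without both high mitochondrial libraries they were 18 lower and 3 higher. With median centring 1 was called higher, and the call of ADRM1 ended. Over all 11383 tested genes, the calls in either direction were 443 in the main setting and 1938 with the mitochondrial block. They were 3142 without both such libraries and 662 with median centring. Leaving out 1 library gave 0 to 16 lower and 0 to 3 higher, the highest without shWTAP 1. In that setting 2751 of the 11383 tested genes were called. Pathway genes called lower, 1 in the main setting, were 4 with a filter of FPKM at least 5, 3 with quantile normalization or median centring, 8 with the mitochondrial block, 13 without both such libraries and 0 to 15 with 1 library left out. Pathway genes called higher, 0 in the main setting, were 1 with that block, 4 without both libraries and 0 to 2 with 1 left out. Of all genes tested, 449 of 6342 were called with the filter of FPKM at least 5. With quantile normalization 672 of 11383 were called. WTAP was called in all 14 alternatives (-0.84 to -0.69). NFYA was called in 13, missing without shWTAP 3 (limma adjusted p = 0.0502).

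The replicate block rests on numbers that do not pair the samples: deviations of same-numbered libraries correlated at -0.11, 0.17 and -0.14 over genes. It changed no WTAP or NFYA call.

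Of the 48 members, 41 kept their sign in all 14 alternatives. The 7 others never passed the threshold with the sign turned. PSMA7 turned to 0.016 with quantile normalization, 0.0020 with median centring and 0.030 without both high mitochondrial libraries, PSMB5 and PSME1 to 0.0099 and 0.0020 with quantile normalization, PSMG4 to 0.0053 with median centring, and PSMB7 and PSMD12 to -0.054 and -0.048 without both libraries. With 1 library left out, PSMA7 ranged from -0.11 to 0.069, PSMB4 from -0.011 to 0.030, PSMB7 from -0.032 to 0.047, PSMD12 from -0.11 to 0.079 and PSMG4 from -0.056 to 0.0066.

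For peaks, a fold of at least 2 left 4 members in the control list only and 4 in the shWTAP list only, against 2 and 1. A deposited p of at most 0.001 left 3 in the shWTAP list only. Assignment by gene span left 0 in the control list only and 6 in neither list, against 12. A larger shared stretch, at least 0.5 of the shorter peak, changed neither overlap count. The depth of the libraries is unknown, so how far it limits these values cannot be said.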
